A study of Populus x canadensis with 3 samples.

Results

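The miRNAs (microRNAs) of untreated roots are described here from 1 small RNA library, called PHBA 0, of the poplar hybrid Populus × euramericana "Neva". Its members are the distinct sequences of the deposited table with a value above 0 in that library, each counted once. They are 421 of the 472 distinct sequences listed for the series, and came to 1434442 reads. Cuttings of 1-year branches were water-cultured for 60 days, with diluted Hoagland's solution once rooted, and then spent 3 days at a para-hydroxybenzoic acid (pHBA) dose of 0 mML-1 as labelled. The other libraries of the series, PHBA 2 and PHBA 4, come from roots given this phenolic acid for the same 3 days at 2 and 4 mML-1, and are used below only as further libraries in which the same measure can be read. Samples of a treatment were pooled as RNA, in equal amounts. Each dose is thus 1 library, no value has a replicate check and no p-value is given. Intervals in brackets are Wilson 95% intervals unless named otherwise and cover counting error only. The table holds no mRNA, so the root label could not be checked against marker genes.

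Plant miRNAs are cut from hairpin precursors by the enzyme DCL1 as a duplex of the 5′ and the 3′ arm. One strand of the duplex is usually kept in an Argonaute protein, where it guides cleavage of mRNAs with a nearly complementary site, and the other strand is degraded. AGO1, the main Argonaute of the pathway, prefers a 5′ uridine, written T in the deposited sequences, and miRNAs of 22 nt are known for setting off secondary phased siRNAs from the mRNAs they cut. A family, the number after miR, gathers loci that give the same or nearly the same mature sequence.

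The sequences that carry most reads are shown first, with bases 2 to 8, the seed, in capitals. The first 10 are the most abundant members in order, and the next 3 stand for the families miR1447 and miR1446 and for the other strand of the miR1448 hairpin.
ptc-miR472b: tTTTCCCAactccacccatccc
ptc-miR472a: tTTTCCCTactccacccatccc
ptc-miR1448_L+1R+1: tCTTTCCAacgcctcccatacc
ptc-miR482a.1_L+5: tCTTGCCTactcctcccattcc
ptc-miR166a: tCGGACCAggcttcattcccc
ptc-miR396a: tTCCACAGctttcttgaactg
ptc-miR1450_R-1: tTCAATGGctcggtcaggtta
ptc-miR156g: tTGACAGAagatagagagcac
ptc-miR482c-3p: tCTTTCCGagtcctcccatacc
ptc-miR166n_L+2R-2: tCTCGGACcaggcttcattcc
ptc-miR1447: cAGAATTGcagtgccttgatt
ptc-miR1446a_R+1: tTCTGAACtctctccctcaac
ptc-MIR1448-p5_1ss20AG: tATGGGAGgattggacagtgc
The prefix ptc marks a name from Populus trichocarpa. The letters L and R with a signed number mark bases gained or lost at the 5′ and 3′ end against the registered miRNA, and ss marks substitutions. Names with MIR in capitals and p5 or p3 stand for the strand of a hairpin for which no mature miRNA is registered.

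The most abundant of these sequences are close relatives of each other. ptc-miR472b and ptc-miR472a differ by the single substitution A8T, counted from the 5′ end, which lies in the seed. ptc-miR482c-3p matches ptc-miR1448_L+1R+1 at 19 of 22 positions, and ptc-miR482a.1_L+5 matches it at 18. ptc-miR472b matches ptc-miR1448_L+1R+1 and ptc-miR482a.1_L+5 at 17 positions each, and ptc-miR472a matches the latter at 18. ptc-miR482d-3p, with the seed TGCCGAC, matches ptc-miR482a.1_L+5 at only 4 positions when both are set base to base from the 5′ end. That count does not allow for an offset. The stretch TTGCC opens ptc-miR482d-3p and lies further in within ptc-miR482a.1_L+5, and much of what follows it is alike, so the low count does not make them unrelated. Each of these sequences has a seed of its own among the abundant members, although miR472, miR482 and miR1448 are all known as regulators of NBS-LRR genes, the intracellular immune receptors of plants.

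How reads are counted decides which family comes first, because the table repeats a sequence at each of its entries. Of the 421 members, 136 have more than 1 entry, up to 12 for ptc-miR166a, and the same value stands at each. Among those 136, the value was within 0.001 of a whole number for 53 (39.0%), and the value times the number of entries was whole for 109 (80.1%). Among the 285 members with 1 entry the value was whole for 227 (79.6%). PHBA 2 gave 39.8% and 79.7% for sequences of several entries, and PHBA 4 gave 34.7% and 75.4%. An even division of reads between the entries of a sequence would give such values, but the rule is not stated. Summed over all entries the library comes to 2358668 reads. Shares are therefore given with each sequence counted once, with the share over all entries beside many of them. A share given without naming the counting is counted once and can differ over all entries.

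Counted once, miR472 led with 40.8% of reads (40.8 to 40.9), and over all entries miR166 led with 30.7%. After miR472, a regulator of NBS-LRR genes, came miR1448 with 17.9% (17.8 to 17.9) and miR482 with 11.4% (11.3 to 11.4), both of that group. miR166, which represses the HD-ZIP III transcription factors of vascular and lateral root patterning, ranked 4 with 5.58% (5.55 to 5.62) when counted once. Over all entries miR472 stood at 24.8%, miR1448 at 10.9% and miR482 at 6.93%. The 3 families held 70.1% counted once and 42.6% over all entries. The split is set by ptc-miR166a, whose 53949.7 reads at each of 12 entries sum to 647396.2, or 27.4% of reads, while ptc-miR472b, ptc-miR472a and ptc-miR1448_L+1R+1 have 1 entry each.

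The next families were miR396 at 3.44% (3.41 to 3.47), which represses growth-regulating factors, and miR156 at 2.74% (2.72 to 2.77), which represses SPL factors and holds plants in the juvenile phase. Then came miR169 at 2.61% (2.59 to 2.64), which targets NF-YA subunits, and the poplar family miR1450 at 2.47% (2.45 to 2.50). miR1447, with 1.31% (1.29 to 1.33), and miR168, the regulator of AGO1, with 1.29% (1.27 to 1.31), closed the first 10. Counted in this way they do not differ beyond their counting intervals. Summing all entries gave 1.56% for miR168 and 0.796% for miR1447. miR159, which acts on MYB factors, held 1.20%, miR1446 1.03% and miR477 0.998%. In ranks 14 to 20 were miR171 (0.706%), which targets GRAS factors of the meristem, miR164 (0.587%), which targets NAC factors, miR6300 (0.571%), miR167 (0.527%) of the auxin response factors ARF6 and ARF8, miR473 (0.517%), miR160 (0.353%) and miR1444 (0.336%), which targets polyphenol oxidases. miR6300 is doubted as a miRNA and resembles a fragment of a longer RNA.

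Some families whose sequences had several entries moved up when all entries were summed. miR1446 went from rank 12 to rank 7 with 2.05%, miR171 from 14 to 12 with 1.37% and miR164 from 15 to 13 with 1.32%. Many entries did not always raise a family. miR169, with the most entries (57), went from rank 7 to 8 and miR396, with 20 entries, from 5 to 6. miR6300 and miR167 kept ranks 16 and 17. Among the 20 leading families those with 1 entry per sequence moved down, as miR1447 from rank 9 to 15 and miR1444 from rank 20 to 24. Of the first 10 families, 9 were the same under both countings.

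**Figure D1:**
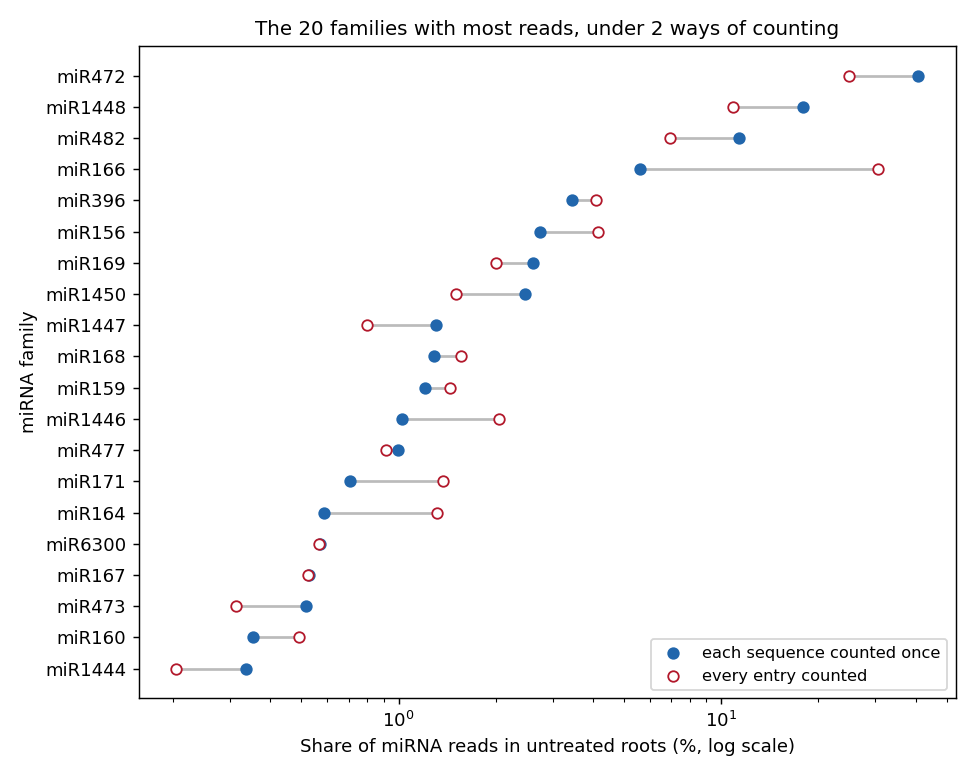
Share of miRNA reads (horizontal axis, percent, log scale) of the 20 families with most reads in the untreated root library. Filled points count each sequence once and open points sum all entries, with a line joining both values of a family. The longest line belongs to miR166, at 5.58% counted once and 30.7% over all entries, while miR167 and miR6300 hardly move.

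The same families led in the other libraries of the series, counted once. miR472 stood at 40.4% in PHBA 2 and 37.9% in PHBA 4. miR1448 stood at 17.8% in PHBA 2 and at 12.0% in PHBA 4, where miR482 ranked ahead of it. Of the first 10 families of untreated roots, 8 were among the first 10 of PHBA 2 and 8 among those of PHBA 4. Of these 10 miR168 was the farthest down in PHBA 4, at rank 22 with 0.385%. Over all entries miR472 led in PHBA 2 with 26.6% and in PHBA 4 with 24.3%, ahead of miR166 with 24.3% and 19.4%. Each library is a single pool, so these are values side by side and differences between them have no replicate check.

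Reads were concentrated on few sequences. The 4 most abundant members held 66.0% of reads counted once and the first 10 held 80.0%, against 62.5% and 80.2% for the first 4 and first 10 over all entries. The first 100 members held 98.1%. The median member had 66 reads and 79 members were under 10. Of the 10 most abundant sequences 9 were among the first 10 of PHBA 2 and 7 among those of PHBA 4.

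Members within a family were very unequal in most of the 12 leading families, and miR472 and miR169 were the exceptions. ptc-miR472b had 293032.5 reads and ptc-miR472a had 292258.5, which are 50.03% and 49.9% of the family. Both counts end in a fraction. The registered 3′ strands left 0.0519% for ptc-MIR472b-p5 and 0.0242% for ptc-MIR472a-p5_1ss7TC. In miR169, the family with most members (37 sequences), ptc-miR169n-3p held 32.0%, ptc-miR169t_L+2R-2 28.3% and ptc-miR169ac_R+2_1ss13AG 20.0%. Over all entries ptc-miR169ac_R+2_1ss13AG came first in miR169, with 31.8%.

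In the other families of the NBS-LRR group the first member held most reads. ptc-miR1448_L+1R+1 held 94.2% of miR1448. In miR482, with 13 sequences, ptc-miR482a.1_L+5 held 73.1% (119434 reads), ptc-miR482c-3p 15.1% (24650) and ptc-miR482d-3p 8.45% (13814). The miR482 name therefore covers sequences of more than 1 seed, of which ptc-miR482a.1_L+5 is the main one.

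Among the developmental families, ptc-miR166a held 67.3% of miR166 and ptc-miR166n_L+2R-2 held 24.7%. Set side by side, the second starts 2 nt ahead of the first, with 19 nt in common, so that its seed is CTCGGAC in place of CGGACCA. They are listed under different hairpins, miR166n and miR166a. Over all entries ptc-miR166a held 89.4% of miR166 and ptc-miR166n_L+2R-2 held 8.18%. ptc-miR396a held 83.8% of miR396, followed by ptc-miR396c at 4.00% (6.13% over all entries), which differs from it by G21T at the last base. ptc-miR156g held 67.3% of miR156, and the next member, ptc-MIR156f-p3, is a strand not registered as mature, with 10.04%. ptc-miR156a, which has 5 entries, had 1403.2 reads, or 3.57% of the family. Over all entries their order turned, with 7.16% for ptc-miR156a and 4.03% for ptc-MIR156f-p3.

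In miR159, ptc-miR159a held 74.6% and mtr-miR159a_1ss21AT 12.9%, again a difference in the last base alone (A21T). ptc-miR168a-5p held 88.1% of miR168 and its opposite strand ptc-miR168a-3p 10.4%. ptc-miR1450_R-1 held 99.8% of miR1450. In miR1446, ptc-miR1446a_R+1 held 57.2% and the unregistered strand ptc-MIR1446d-p3 34.8%, or 87.0% and 10.6% over all entries.

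**Figure D2:**
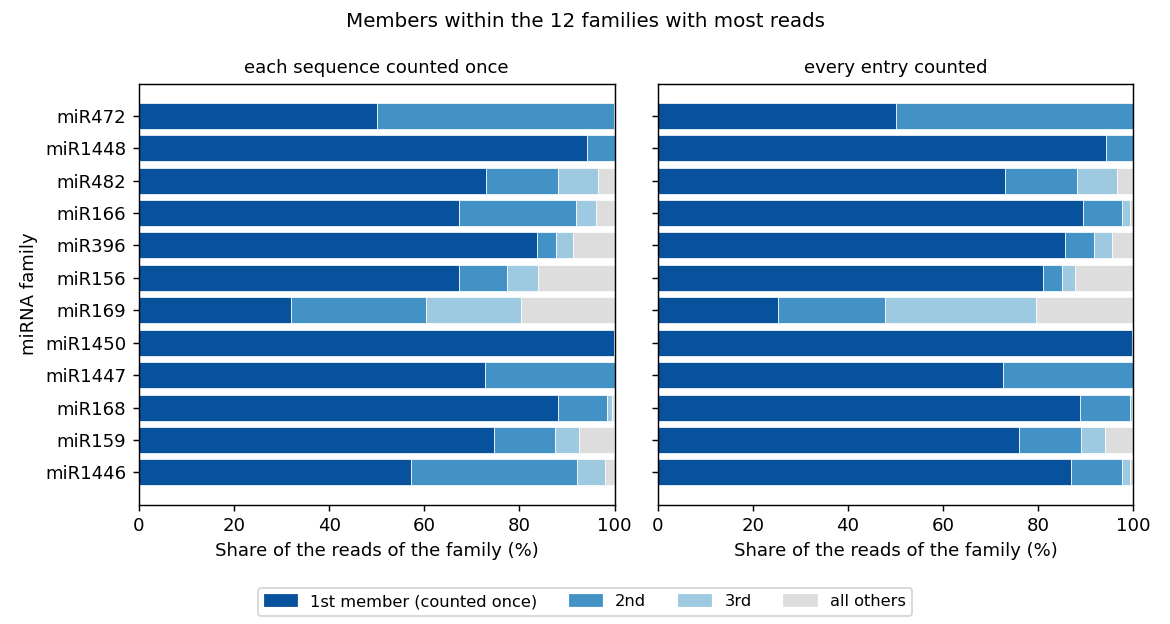
Share of the reads of each family (horizontal axis, percent) held by its leading members and by all others, for the 12 families with most reads, with each sequence counted once on the left and every entry counted on the right. Members are ordered as counted once. miR472 is split nearly evenly between ptc-miR472b and ptc-miR472a, miR169 is spread over many members, and ptc-miR166a rises from 67.3% to 89.4% when entries are summed.

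Several functional groups, taken from lists, were small in untreated roots. The copper-responsive families held 0.632% (0.620 to 0.645) counted once and 0.390% over all entries, of which miR1444 and miR408 made up most. ptc-miR1444a_R+1 had 3822 reads and ptc-miR408-3p, which acts on copper proteins such as plantacyanin and laccase, had 3203. ptc-miR397a, which acts on laccases, had 599 reads, and ptc-miR398b, which acts on copper superoxide dismutases, had 125.5. The phosphate and sulfate group held 65.5 reads in all, 0.00457% (0.00362 to 0.00585), or 0.00301% over all entries. Its members were ptc-miR827 with 22 reads, ptc-miR399e with 19 and ptc-MIR395k-p5 with 13, the last a strand not registered as mature, and 2 more sequences under 10. The auxin group (miR160, miR167, miR390, miR393) held 1.25%, the small RNA machinery group (miR162, miR168, miR403) 1.91%, and miR475 and miR476, which act on pentatricopeptide repeat genes, 0.403%. Group shares sum all sequences of a family, from both arms. In miR403 the 5′ sequence ptc-miR403c-5p held 84.0% of the family. The meristem and organ development group held 12.9% counted once and 39.5% over all entries, mostly through miR166.

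Which strand of a hairpin was kept could be read for 85 hairpins with both arms listed above 0. The 3′ arm had more reads in 49 and the 5′ arm in 36, and the more abundant arms together held 96.6% of the reads of these hairpins. The median share of the less abundant arm was 11.2% (14.1% over all entries), from 0.0486% in the miR472a hairpin to 49.7% in miR475c. Where a mature name gave no arm, it was taken as the arm opposite the labelled one. As a check, both arm sequences could pair over at least 14 bases in 68 of the 85, of which 39 had more reads on the 3′ arm and 29 on the 5′ arm. Among the others some pairs are nearly the same sequence, as in vvi-miR3630, and are not a duplex. The arms of stu-8005c are the same repeat too, yet pass with 17 bases, so passing does not by itself show a duplex.

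Of the 10 hairpins with most reads, 7 left under 5% to the other arm. The miR472b hairpin had 304 reads on the 5′ arm and 293032.5 on the 3′ arm, so the minor arm held 0.104%. The miR472a hairpin had 142 and 292258.5. For miR482c the values were 14 and 24650, a minor share of 0.0568% (exact Clopper-Pearson 0.0310 to 0.0952), and for miR1450 they were 63 and 35414. The miR482a hairpin had 1976 reads on the 5′ arm and 119520 on the 3′ arm, with a minor share of 1.63%. miR396a had its reads on the other side, with 41348.2 on the 5′ arm and 1785.5 on the 3′ arm. miR166n left 0.918% to the 5′ arm.

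Several hairpins kept a large number of reads on both arms. The miR1448 hairpin had 14743 reads on the 5′ arm and 241825 on the 3′ arm, so that the minor strand, ptc-MIR1448-p5_1ss20AG, was itself the 12th most abundant sequence of the library. miR1447 had 5130 and 13641, a minor share of 27.3% (exact 26.7 to 28.0). miR166a left 5.84% to its 5′ arm counted once and 2.02% over all entries.

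Of the 74 hairpins with at least 100 reads, 24 gave the less abundant arm at least 20% of the reads. In conserved families these included miR477a with 7239 reads on the 5′ arm and 2382 on the 3′ arm, miR171j with 1605 and 788.5, miR169u with 1234.2 and 338, miR169q with 622.2 and 175.5, miR396g with 231 and 503, miR160e with 170.3 and 304, and miR164f with 57.3 and 44. The names gma-167c and bra-168a, from other species, were further cases by name, with 117.5 and 101 reads. In poplar families they included miR475a with 1097.3 and 1595.5, miR6427 with 1131 and 448, miR6457a with 226 and 343, miR7813 with 119 and 329, miR475c with 73 and 72, miR6446 with 56 and 66, miR481d with 64.5 and 104.5, and 5 hairpins of miR6462, of which miR6462e and miR6462f had the same 168.2 and 163.8. The doubted annotation miR5368 had 118 and 391. Over all entries the number is 20 of 74. The minor share was then 14.1% for miR477a, 14.3% for miR5368, 18.1% for miR6462c and 15.7% for miR6462b and miR6462d, all below the limit, and 21.6% for miR169i, which was at 14.2% counted once. It rose to 49.6% for miR171j and fell to 20.3% for miR156a. The members near the limit, counted once, are miR169u at 21.5% just inside and miR2111a at 15.6% just outside. The arms of bra-168a are ptc-miR168a-5p and ptc-miR168a-3p with bases added at an end. The miR168a hairpin itself left 10.6% to its 3′ arm, so bra-168a is a case by name only. In gma-167c the leading sequence set as the 3′ arm is ptc-miR167e with a base added at its 5′ end. In the miR167e hairpin ptc-miR167e is set on the 5′ arm and the other arm held 4.00%, so gma-167c too is a case by name only.

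The miR156a hairpin shows how far such a value depends on the counting. ptc-miR156a on the 5′ arm had 1403.2 reads at each of 5 entries, and ptc-MIR156a-p3 had 1784 at 1 entry, so the unregistered strand is ahead per entry and behind over all entries. miR160e turned in the same way, and the other 83 hairpins kept their more abundant arm.

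Hairpins of poplar families had a larger minor share at the median than conserved ones. The median was 26.6% over 31 poplar hairpins and 8.14% over 42 conserved ones, and with at least 100 reads it was 18.7% over 26 and 6.75% over 40. Over all entries the medians of the 31 and 42 hairpins were 18.1% and 6.75%. The medians were not tested, since hairpins of a family share sequences and poplar hairpins also had fewer reads. Of the poplar hairpins 24 had more reads on the 3′ arm and 7 on the 5′ arm, while conserved hairpins were split into 20 and 22.

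The first base differed between the arms. The more abundant arm began with T in 52 of 85 hairpins and the less abundant arm in 29. In 38 hairpins only the more abundant arm began with T, and in 15 only the less abundant one. Within conserved families the more abundant arm began with T in 28 of 42 hairpins and the other arm in 9. In poplar families these counts were 19 and 17 of 31.

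In 35 hairpins the more abundant arm carried a name not registered as mature. Some are a matter of naming, as for miR171a, where the 3′ sequence is listed as ptc-miR171e at other entries. Among the hairpins with 1 registered arm the unregistered arm was ahead in 13 of 50. They include miR477c, with 3450 reads on ptc-MIR477c-p5 and 566 on ptc-miR477c_R-1, miR169d with 702 on the 3′ arm and 28.1 on ptc-miR169d (a minor share of 3.84%, or 19.3% over all entries), miR159c with 522 on the 5′ arm and 32 on ptc-miR159c, and the poplar miR6421 and miR6424, with 605 and 506 on the unregistered 3′ arm against 111 and 14. Of the hairpins with both arms listed in PHBA 2 as well, 62 of 70 had the same arm ahead, and in PHBA 4 58 of 64. The exceptions with most reads were miR156a and miR171j in PHBA 4, which had minor shares of 44.0% and 32.9% here.

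**Figure D3:**
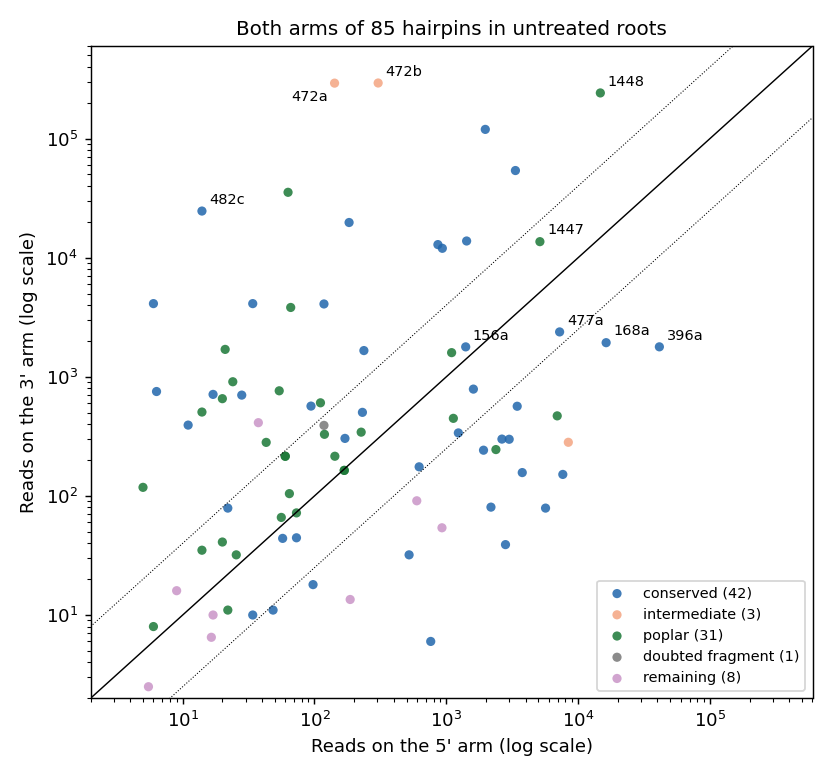
Reads on the 5′ arm (horizontal axis) and the 3′ arm (vertical axis), both on log scales, of the 85 hairpins with both arms listed in untreated roots, coloured by family class with the number of hairpins in brackets. The solid line marks equal reads and the dotted lines a minor arm of 20%. The miR472, miR482c and miR1448 hairpins lie far above the line, miR396a and miR168a lie below it, and miR156a and miR1447 lie between the dotted lines.

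Most sequences were of 21 nt and most reads, counted once, of 22 nt. There were 215 sequences of 21 nt and 78 of 22 nt, with 25.5% (25.4 to 25.6) and 71.3% (71.2 to 71.3) of reads. Over all entries the order turned, with 53.3% on 21 nt and 43.6% on 22 nt. The NBS-LRR group held 96.9% of the reads of 22 nt, and without it 7.48% of the remaining reads were of 22 nt and 81.7% of 21 nt. Outside that group the leading families of 22 nt were miR156 with 7390 reads, miR1447 with 5130, miR171 with 4143.5 and the poplar family miR6445 with 2211.

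Each of the other lengths was led by 1 or a few sequences. At 20 nt, with 1.84% of reads, ptc-miR169n-3p held 45.5% of the reads. At 23 nt, with 0.802%, ptc-miR169ac_R+2_1ss13AG held 65.3%. At 18 nt gma-miR6300 had 1575 reads, 62.5% of that length, and at 24 and 25 nt longer forms of the same name led with 916.5 and 468.5 reads. At 19 nt ptc-miR167a_R-2 led with 761.7 reads. Sequences of 24 nt, the length typical of heterochromatic siRNAs, were 27 with 0.196% of reads, and 13 of them carry names of poplar families.

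**Figure D4:**
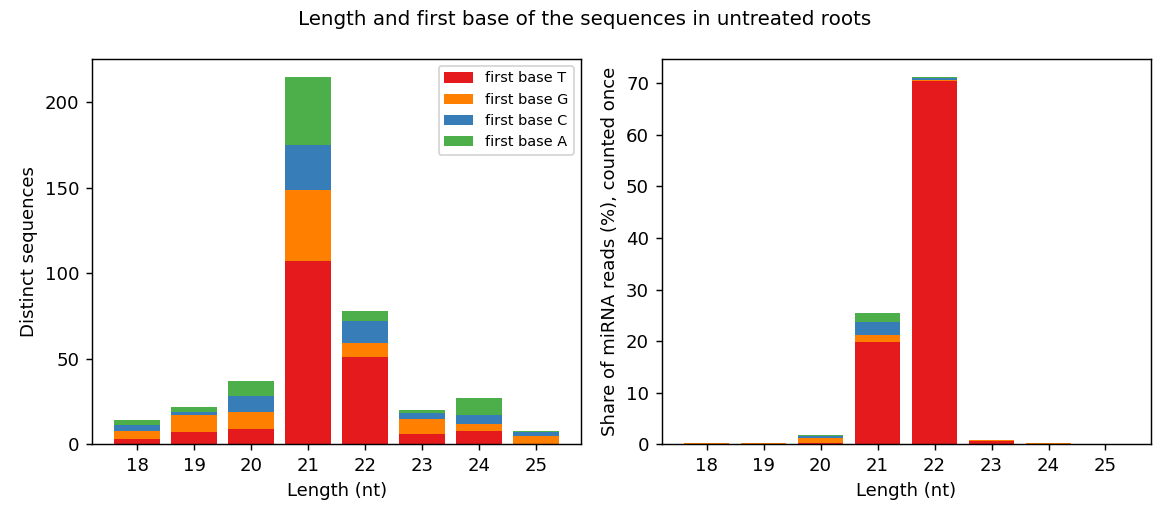
Number of distinct sequences (left) and share of miRNA reads counted once (right, percent) by length in nt, with the first base in colour. Sequences of 21 nt are the most numerous, at 215, and the reads of 22 nt, 71.3% of all, begin almost wholly with T.

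T was the first base of 191 members (45.4%) and of 91.4% of reads (91.4 to 91.5), or 93.0% over all entries. Among reads of 22 nt 98.9% began with T, and among those of 21 nt 78.0%. A came first in 74 members with 2.30% of reads, led by ptc-miR477a-5p with 7239 reads. C came first in 63 members with 3.28%, led by ptc-miR1447 with 13641. G came first in 93 members with 2.98%, led by ptc-miR169n-3p with 11996.

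The 421 members had 308 distinct seeds, of which 255 belonged to 1 sequence. Only 7 seeds were shared between families. TTTCCCT is found in ptc-miR472a and in ptc-MIR395k-p5 with its 13 reads, and ATGGGAG in the 5′ strands of miR1448 and miR482c. TGACAGA is shared by miR156 and miR157, which are the same family under different numbers. TCGTTGT stood in 15 sequences, nearly all of miR6300 and 1 of them ath-miR858b, named for a regulator of MYB factors. AGCCAAG of miR169 stood in 11 sequences with 0.698% of reads, and TCCACAG of miR396 in 5 with 3.05%.

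End and substitution variants in the names held 36.0% of reads, and a single pair of sequences made up most of that. The total includes substituted strands not registered as mature, with 1.73%, which are described further below. Mature names as registered were 91 sequences with 60.7% of reads (60.6 to 60.7), or 71.3% over all entries. Names with changed ends only were 94 with 32.7% (32.6 to 32.8), or 23.5% over all entries, led by ptc-miR1448_L+1R+1. Substitutions alone were 18 with 0.8%, led by mtr-miR156h-3p_2ss6TC9TG with 2618.5 reads, and both together were 27 with 0.760%, led by ptc-miR169ac_R+2_1ss13AG. Any change of an end was seen in 121 sequences with 33.5% of reads, and without ptc-miR1448_L+1R+1 and ptc-miR482a.1_L+5, both picked after their values were seen, in 119 with 8.27%. With every entry counted these shares were 24.3% and 8.97%. Each name sets a sequence of this hybrid against a miRNA registered in another species, so a change in a name need not be a change within the hybrid.

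A 3′ end longer than registered was more frequent than a shorter one, with 64 against 21 sequences. Of these only 19 and 13 had P. trichocarpa names, so most of the excess lies in names of other species. Reads on all longer and all shorter ones were 20.0% and 4.88%, led by ptc-miR1448_L+1R+1 and ptc-miR1450_R-1. With every entry counted these shares were 14.2% and 4.74%. The 5′ end was longer in 37 sequences (11 named for P. trichocarpa), with 27.5% of reads counted once and 18.4% over all entries. It was shorter in 19 (4 so named) with 0.164%. It was as registered in 174. A change of the 5′ end moves the seed. The most frequent single form was 1 base more at the 3′ end and no change at the 5′ end, with 36 sequences (12 named for P. trichocarpa), led by ptc-miR1446a_R+1 with 8427.5 reads. Among mature names of P. trichocarpa 80 of 124 were as registered, and among those of other species 11 of 106.

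Strands not registered as mature were 170 sequences in all. Those as in the hairpin were 94 with 3.26% of reads, led by ptc-MIR1446d-p3 with 5136, and those with substitutions were 76 with 1.73%, led by ptc-MIR1448-p5_1ss20AG. Names of P. trichocarpa covered 245 members and 98.1% of reads, names of other species only 155 members and 1.8%, and predicted miRNAs 21 members and 0.0904%. Median reads were 151.5, 20 and 33 for these sets. The most abundant predicted member, PC-3p-19917_356, had 321 reads.

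Conserved families had the most members and, counted once, did not hold most reads. Of 36 families on a list of families found widely among flowering plants 30 were above 0, with 239 members and 33.3% of reads (33.2 to 33.4). Of 101 names on a list of families known from Populus or the willow family 40 were above 0, with 82 members and 23.8% (23.7 to 23.9). An intermediate class of miR472 and miR1446, known from some other plant families too, held 41.9% with 9 members. Over all entries the order turned, with 57.5% for conserved, 26.9% for intermediate and 14.6% for poplar families. Without the NBS-LRR group conserved families held 73.4% of reads counted once and poplar families 19.8%. The lists were written from general knowledge and were not checked against a miRNA database.

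More than 1 entry was seen for 36.0% of conserved members and 15.9% of poplar members, with at most 12 and 3 entries. Median reads per member, counted once, were 79 for conserved and 79.5 for poplar families. Medians over all entries were not computed, so the near equality holds for this counting only. Sequences of 21 nt made up 133 of the 239 conserved and 56 of the 82 poplar members, and 24 nt 5 and 13. T came first in 110 conserved and 49 poplar members.

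The 8 poplar families with most reads began with miR1448, miR1450 and miR1447, described above. miR473 followed with 7411 reads, 93.7% of them on ptc-miR473a-5p_R+1. ptc-miR477a-5p of the conserved list has the same last 10 bases as that sequence and matches it at 13 of 21 positions, set base to base. Both also hold the stretch TCTCCCTCA, a base further in within ptc-miR473a-5p_R+1, which that count does not allow for. The sequences are thus closer than the count, although the lists place them in different classes. miR1444 had 4821 reads, with 79.3% on ptc-miR1444a_R+1. miR475 had 3159.8, spread over 6 sequences with 50.5% on ptc-miR475a-3p, while miR476 had 2624, with 90.7% on ptc-miR476a. miR6445 had 2489 reads, with 88.8% on ptc-miR6445a. Of the 95 families of the library, poplar and others, 14 had under 10 reads in all.

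**Figure D5:**
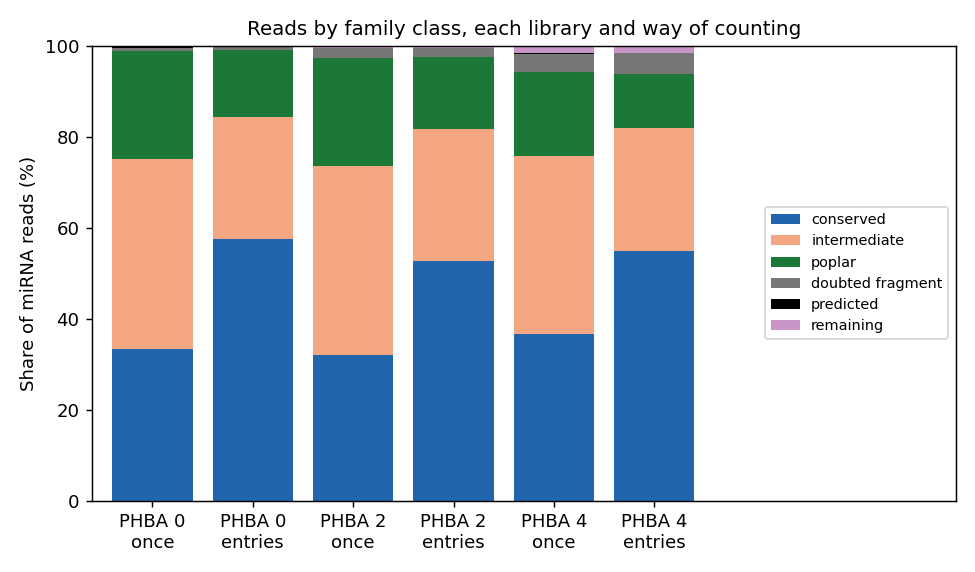
Share of miRNA reads (vertical axis, percent) by family class, for each of the 3 libraries with each sequence counted once and with every entry counted. Conserved families rise from 33.3% to 57.5% in PHBA 0 when entries are summed, and in PHBA 2 and PHBA 4 they also hold a larger share over all entries.

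The doubted fragment families miR6300, miR5368 and miR6478 held 0.676% of reads here, below the 2.08% and 3.97% of PHBA 2 and PHBA 4. They had 28 members, and miR894 and miR5139 of that list were not among the members. Families on none of the class lists held 0.259% here, against 0.479% in PHBA 2 and 1.61% in PHBA 4. Among them is miR8175, of which ath-MIR8175-p3_2ss18TC22AC shares the seed ATAGTGG with a miR6300 sequence. The share of fragments thus depends on the list, and whether unlisted families are fragments was not tested. Of the conserved list miR165, miR170, miR529, miR535, miR845 and miR2118 had no member above 0, and of the poplar list 61 of 101 names had none. The copper family miR857 had none either.

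Sequences listed at 0 in untreated roots numbered 51. Of these 17 were above 0 in PHBA 2 only, 25 in PHBA 4 only and 9 in both, and the highest was hbr-MIR6173-p5 with 31.5 and 40.5 reads. Whether a minimum was applied before listing is unknown, and a count of 3 reads would be a share of 0.000209%. A further 56 members were above 0 here only, with a median of 7.25 reads and at most 44, for ptc-MIR164f-p3. In all 3 libraries 289 sequences were above 0. PHBA 0 also had the most reads on listed miRNAs, against 542913 in PHBA 2 and 380800 in PHBA 4, and the part of that depth in these counts was not tested.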

How the data were processed

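Small RNA of poplar roots was sequenced from total RNA, 1 library per pHBA dose, after RNA of a treatment had been mixed, per the labels' protocols. Per the submitters' processing notes, bcl2fastq 1.8.4 was used. The sources used here name no aligner, counter, miRNA release or genome build, so no genome position is given.

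The authors deposited 1 table of 673 entries with an expected count per entry and library, labelled raw and not always whole. They also deposited a normalized signal, which in PHBA 0 is the expected count times 0.4985. It has no length term, so shares are the same on both scales, and the expected counts were used. How reads were divided between entries is not stated.

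Names were split into species, family, letter, arm, end changes and substitutions with Python 3.11.15 and pandas 2.3.3. Counts were rounded to whole reads for intervals only (SciPy 1.17.1). Pairing of arms was computed with RNAduplex of ViennaRNA 2.7.2. Scripts were tested on simulated data. Depth means reads on the listed miRNAs, since other reads of the library were not analysed here. With 1 library per dose no test was made.

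Named are the 20 leading families, up to 3 members of the first 12, the 10 leading sequences, hairpins of at least 100 reads with a minor arm of at least 20%, the leaders of each length and kind of name, and 8 poplar families; other named members were chosen after their values were seen. Members and lists were chosen with earlier results of these data known.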

Additional observations from a re-analysis of the deposited data

How the results depend on the processing

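Counting every entry changed most results. It moved miR472 from 40.8% to 24.8% of reads, miR166 from 5.58% to 30.7%, 21 nt from 25.5% to 53.3%, 22 nt from 71.3% to 43.6%, conserved families from 33.3% to 57.5%, poplar families from 23.8% to 14.6% and end or substitution variants from 36.0% to 26.04%. With P. trichocarpa names only the values were 41.6% for miR472, 5.51% for miR166 and 35.2% for variants, and without doubted fragments and sequences under 20 nt miR472 held 41.2%. Without the NBS-LRR families 21 nt held 81.7%, 22 nt 7.48%, conserved families 73.4% and poplar families 19.8%. With the intermediate class added, conserved families held 75.2% and poplar families 65.7%. PHBA 2 gave 40.4%, 4.58%, 24.2%, 32.0%, 23.9% and 38.0% for miR472, miR166, 21 nt, conserved families, poplar families and variants. PHBA 4 gave 37.9%, 4.08%, 29.2%, 36.6%, 18.5% and 33.4% for the same and 62.1% for 22 nt. ptc-miR472b held 50.03% of miR472 here, 51.2% in PHBA 2 and 49.7% in PHBA 4. The numbers of sequences above 0 (342 to 421) and of hairpins with the 3′ arm (36 to 49) or the 5′ arm (29 to 38) ahead stayed within 1.5 times under each alternative, among them 2 chosen after seeing the data, entries summed per arm and arms that pair over 14 bases. For the other 18 leading families, 60 of 126 values stayed within the counting interval and 66 moved outside it. No paired analysis was possible because each dose is 1 library. Members under 10 reads rest on too little depth to order them.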
